A study of Homo sapiens with 15 samples.

Results

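HMT3522 T4 is a malignant human breast epithelial line, and the 9 samples described here are T4 cells that carry the tumor stage "revert", each with a different reverting agent. They were set against the 3 T4 samples whose titles name no agent, so 12 of the series' 15 samples enter the comparison. The 3 samples of S1, the nonmalignant line of the same HMT3522 lineage, served only to tie the array types together and as a reference level. All cells were grown in a 3-dimensional laminin-rich matrix (3D lrECM), and total RNA was hybridised to Affymetrix human expression arrays.

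The labels name the agents as GM6001, a metalloproteinase inhibitor; an inhibitor of metalloproteinases and ADAM proteases; TNF protease inhibitor–2; PD98059, listed as a MAPK inhibitor; LY294002, a PI3K inhibitor; dominant-negative Rap1; Tyrphostin AG 1478 and mAb225, both EGFR inhibitors; and AIIB2, a β1-integrin inhibitor. Each agent has 1 sample, so no agent can be tested on its own, and nothing in the labels says which T4 samples, if any, received a vehicle. The sources used here state no dose, time or number of cultures. Whether the samples within a group were grown separately is not stated, so a p-value reflects the spread among these samples alone, and in the T4R group that spread includes the differences between agents. The question posed here is which changes from T4 all 9 agents have in common.

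As background, epithelial cells shed EGFR ligands from their surface through ADAM proteases, and the freed ligands drive EGFR, the RAS and ERK cascade and PI3K. ERK signalling induces its own inhibitors, among them Sprouty proteins and dual-specificity phosphatases, together with AP-1 transcription factors. β1-integrins bind laminin and other matrix proteins and act together with growth factor receptors. The agents used here act at different points of this network, and in 3-dimensional culture they are known to return T4 colonies to an acinus-like form.

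The 3 T4 samples and the samples of LY294002, GM6001 and the MMP and ADAM inhibitor lie in the first of 2 deposited tables, and the other 6 agents lie in the second, on another array type. Levels are deposited log2 values per gene, and a difference of 1 on this scale is 2-fold. The limma fit over all samples, with the table as a block, gives the group difference, but the first table's 3 agents carry a summed weight of 0.83 in it and the second table's 6 agents only 0.17. A gene was therefore called shared only if it passed this test (Benjamini-Hochberg adjusted p under 0.05) and if each of the 9 agents lay at least 2-fold from the T4 mean and outside the range of the T4 samples. This had to hold on 3 scales, namely the deposited values, the values less the fitted table term, and the values less the difference between S1 sample 3 (second table) and S1 samples 1 and 2 (first table). The groups do not vary evenly: T4 samples 1 and 2 differed at least 2-fold in 6 of 9112 genes tested, but T4 sample 3 differed from them in 356 and 426.

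Most epithelial markers lay above the median of genes in T4 and with every agent. The basal keratin genes KRT5 and KRT14 had means of 13.25 and 13.75 in T4 and 13.76 and 14.20 over the agents, and the mean of the 7 epithelial markers on the array (of 8 listed) was 10.19 to 10.48 in T4 and 10.27 to 10.92 with the agents. KRT19 and EPCAM were the exceptions. KRT19 lay below the lower quartile of genes in all 12 samples, and EPCAM, at a mean of 7.49 in T4 and 8.37 over the agents, lay below the median of genes in 3. The means of 4 leukocyte and 3 endothelial markers stayed at 7.05 to 7.35 and 6.74 to 6.89 over all 12 samples. The 6 stromal markers had means of 7.17 to 7.32 in T4 and 7.19 to 7.82 with the agents, with COL1A1 highest at 8.94 in T4 and 9.72 over the agents (0.36, adjusted p = 0.676). Their part in the results was not tested. In such bulk samples fewer cells of a type and less RNA per cell cannot be told apart.

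The group test called 769 of 9112 genes lower (8.44%) and 589 higher (6.46%) with the agents than in T4. Without T4 sample 1 or T4 sample 3, the count of higher genes was 390 or 373. All 9 agents lay below the lowest T4 sample on every scale in 413 of the lower genes (4.53% of genes tested), and above the highest in 269 of the higher genes (2.95%). With the 2-fold requirement added, 60 genes were shared by all agents in the lower direction (0.658%) and 24 in the higher direction (0.263%). These 84 genes are the subject of what follows. Several probe sets were present for 22 of the lower and 10 of the higher genes. Another probe set passed in the same direction in 17 and 7 of them, but not for SPRY4, INHBA or TMT1A, among others. No called gene had an agent that moved at least 2-fold against the group on all 3 scales.

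**Figure D1:**
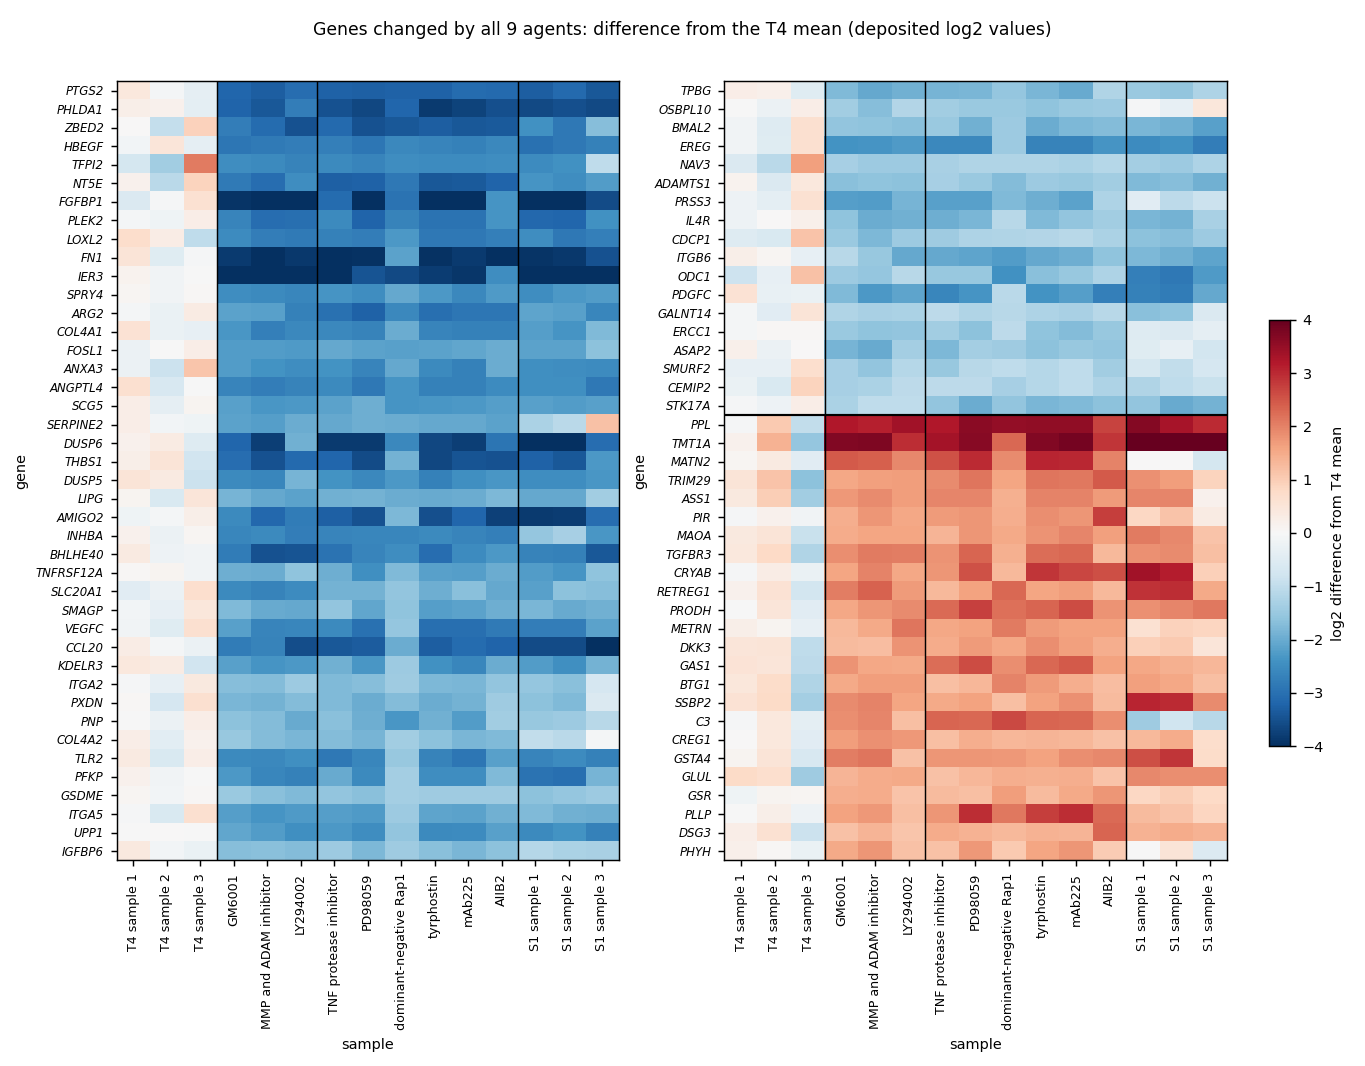
Log2 difference of each sample (columns) from the mean of the 3 T4 samples, as deposited, for the 84 shared genes (rows, continued from the left to the right panel, colour scale from -4 to 4). The 60 lower genes come first and the 24 higher ones after them, each ordered by its least-changed agent; vertical lines separate T4, the first table's 3 agents, the second table's 6 agents and S1.

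The 2 tables bear on these genes separately. Within the first table, where LY294002, GM6001 and the MMP and ADAM inhibitor are set against T4 with no step between array types, limma called 764 genes lower (8.38%) and 631 higher (6.92%), and 56 of the 60 shared lower and 21 of the 24 shared higher genes passed. The count of all calls there fell from 1395 to 570 without GM6001, 577 without the MMP and ADAM inhibitor and 809 without T4 sample 1, and was 2166 without T4 sample 3. The 6 agents of the second table were also fitted as a group of their own, linked to T4 through S1 alone, a fit added after seeing the data. It called 647 genes lower (7.10%) and 599 higher (6.57%), and again 56 of the 60 and 21 of the 24. Since the shared set was chosen partly on these values, the counts describe it and are no separate support.

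Before the values, the promoters of the shared genes are described. Promoter windows, from 250 bases before to 50 after the transcription start in RefSeq on GRCh38.p14, were found for 53 of the 60 shared lower and 16 of the 24 shared higher genes. They were searched on both strands for the AP-1 motif TGANTCA, the CRE motif TGACGTCA, the FOXO motif GTAAACA and the CArG box of serum response factor. The AP-1 motif was in 5 of the 53 lower windows (9.43%), namely AMIGO2, ITGA5, OSBPL10, PRSS3 and TFPI2, against 4.77% of 7500 tested genes and 7.76% of all 27305 windows of the table. CRE was in 2 of the 53 (3.77%, against 3.44% and 1.98%) and CArG in 1, ITGB6 (1.89%, against 1.12% and 1.29%). FOXO was in 2 of the 16 higher windows, BTG1 and PLLP (12.5%, against 2.31% and 3.41%), and in 1 lower one. No shared lower window held both AP-1 and CRE. A match describes these letters only.

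The windows of the named shared genes with a match to AP-1 or CRE are shown because these motifs bind factors downstream of the kinases that the agents address. Capitals mark the motif. FN1 lies at chr2:215436019-215436318 on the minus strand with a CRE that begins at -183 from the start site, ARG2 at chr14:67619670-67619969 on the plus strand with CREs at -172 and -64, ITGA5 at chr12:54419217-54419516 on the minus strand with an AP-1 motif at -6, and PIR, from the higher set, at chrX:15493284-15493583 on the minus strand with an AP-1 motif at 28. FN1, ARG2 and ITGA5 fell with all agents and PIR rose.
FN1: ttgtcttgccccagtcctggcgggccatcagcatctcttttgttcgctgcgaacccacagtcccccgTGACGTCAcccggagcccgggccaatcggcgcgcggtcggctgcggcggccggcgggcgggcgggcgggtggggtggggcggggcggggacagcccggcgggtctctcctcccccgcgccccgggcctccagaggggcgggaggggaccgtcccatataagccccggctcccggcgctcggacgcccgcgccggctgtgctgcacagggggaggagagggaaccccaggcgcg
ARG2: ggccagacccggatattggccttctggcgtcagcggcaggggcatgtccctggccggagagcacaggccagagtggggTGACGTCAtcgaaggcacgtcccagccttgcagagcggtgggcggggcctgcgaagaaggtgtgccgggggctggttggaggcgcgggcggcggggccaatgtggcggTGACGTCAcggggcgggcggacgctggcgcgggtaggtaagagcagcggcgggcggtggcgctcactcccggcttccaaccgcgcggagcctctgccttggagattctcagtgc
ITGA5: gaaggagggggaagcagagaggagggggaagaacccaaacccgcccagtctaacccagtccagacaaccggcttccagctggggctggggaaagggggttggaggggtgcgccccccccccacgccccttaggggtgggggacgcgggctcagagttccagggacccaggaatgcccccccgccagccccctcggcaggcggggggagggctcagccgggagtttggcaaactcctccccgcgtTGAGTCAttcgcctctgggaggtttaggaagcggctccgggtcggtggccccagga
PIR: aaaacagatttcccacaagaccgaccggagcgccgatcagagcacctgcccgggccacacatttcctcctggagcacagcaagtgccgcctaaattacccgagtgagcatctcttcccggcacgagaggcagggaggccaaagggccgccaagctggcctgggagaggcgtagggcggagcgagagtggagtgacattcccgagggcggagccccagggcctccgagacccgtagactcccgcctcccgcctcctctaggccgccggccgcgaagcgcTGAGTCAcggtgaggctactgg

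Among the signalling molecules nearest to the agents' targets, the EGFR ligand genes HBEGF and EREG fell with every agent. HBEGF, whose product is shed by ADAM proteases, stood at 9.96, 10.55 and 9.70 in the 3 T4 samples and at 7.17 (PD98059), a median of 7.32 and 7.50 (AIIB2) with the agents. The lowest T4 sample thus lay more than 2 log2 units above the highest agent. The fitted difference was -2.83 ± 0.15 (standard error; limma adjusted p = 1.15e-07). EREG, which encodes epiregulin, went from 9.13, 8.80 and 9.91 to between 6.61 (mAb225) and 7.84 (dominant-negative Rap1), with a median of 6.89 and a fitted difference of -2.29 ± 0.29 (adjusted p = 0.000237). The dominant-negative Rap1 sample was the one agent sample above 7.02. Of 7 genes tested on the list of EGFR ligands and receptors, 3 fell and none rose. The third was TGFA (-1.42 ± 0.32, adjusted p = 0.0103), which LY294002 kept out of the shared set with a difference of -0.54. Counts for this list and those below are to be read against the shares over all genes tested. These were 8.44% called lower, 6.46% called higher, 0.658% shared lower and 0.263% shared higher.

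The receptors and kinases that the agents address were outside the shared set. EGFR (0.02 ± 0.37, adjusted p = 0.98), ITGB1 (0.01 ± 0.10, adjusted p = 0.972), RAP1A (0.21 ± 0.20, adjusted p = 0.528), RAP1B (-0.36 ± 0.13, adjusted p = 0.0893) and MMP14 (0.06 ± 0.10, adjusted p = 0.739) did not pass, and EGFR, ITGB1, RAP1A and MMP14 changed sign under other settings. ADAM17, the main sheddase of EGFR ligands, fell by 0.40 ± 0.10 (adjusted p = 0.0167). As deposited its difference ran from -0.55 (LY294002) to 0.11 (dominant-negative Rap1), with -0.008 for AIIB2 and 0.002 for mAb225. The second table's agents, linked to T4 through S1, did not pass in limma (-0.26 ± 0.18, adjusted p = 0.376). No other of the gene's 3 probe sets passed in the same direction. MAP2K1 encodes the kinase MEK1, which PD98059 blocks. It stood at 9.46, 9.24 and 9.66 in T4 and between 8.01 (dominant-negative Rap1) and 8.62 (LY294002) with the agents, a fitted fall of 0.99 ± 0.13 (adjusted p = 0.000377) with no overlap of the groups.

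Genes that report ERK activity gave the largest count of shared genes of any list, though the lists differ in size. Of 21 tested, 11 fell and 1 rose, and 6 were shared (DUSP5, DUSP6, FOSL1, IER3, PHLDA1 and SPRY4), with a list median of -1.12 against 0.00 over all genes. Over all genes tested 8.44% were called lower and 0.658% were shared lower. The list of EGFR ligands and receptors had 2 shared of 7 tested, so by share the ERK list did not stand alone. SPRY4, a feedback inhibitor of receptor tyrosine kinase signalling, had T4 values of 9.43, 9.21 and 9.41, and the agents lay between 6.74 (LY294002) and 7.31 (dominant-negative Rap1) with a median of 6.86. Its fitted difference of -2.54 ± 0.11 had an adjusted p of 2.25e-08 in limma. PHLDA1, an ERK-induced gene, went from 11.13, 11.06 and 10.52 to between 7.08 (tyrphostin) and 8.14 (LY294002), with a median of 7.42 (-3.18 ± 0.19, adjusted p = 2.35e-07).

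IER3, an immediate early gene, had the second largest fitted fall of the named genes (-4.03 ± 0.32, adjusted p = 6.47e-06). Its T4 values of 12.26, 11.98 and 12.10 hardly varied, whereas the agents ran from 7.83 (the MMP and ADAM inhibitor) over a median of 8.21 to 9.62 (AIIB2). FOSL1, the AP-1 factor FRA1, stood at 9.12, 9.33 and 9.60 in T4 and within 7.09 (LY294002) to 7.38 (AIIB2) with the agents (-2.29 ± 0.11, adjusted p = 2.6e-08). The phosphatase genes DUSP6 (-3.22 ± 0.47, adjusted p = 0.000628) and DUSP5 (-2.39 ± 0.28, adjusted p = 0.000115) were shared as well. SPRY1 was the member that rose (0.78 ± 0.21, adjusted p = 0.0259). EPHA2 (-1.34 ± 0.17), IER2 (-2.05 ± 0.36), SPRED2 (-0.97 ± 0.17), ETV5 (-1.53 ± 0.30) and JUNB (-1.12 ± 0.31) fell as a group without all 9 agents meeting the rule.

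FGFBP1, which releases fibroblast growth factors stored in the matrix, had the largest fitted fall (-4.53 ± 0.53, adjusted p = 0.000116) and also one of the widest agent ranges. It stood at 11.93, 12.44 and 13.12 in T4 and between 7.88 (LY294002) and 10.12 (AIIB2) with a median of 8.12. AIIB2 (10.12), dominant-negative Rap1 (9.54) and TNF protease inhibitor–2 (9.42) left it highest. The other shared genes for secreted growth factors or their subunits were VEGFC (-2.60 ± 0.36), PDGFC (-2.20 ± 0.36) and INHBA, the activin βA subunit (-2.49 ± 0.16, adjusted p = 7.03e-07). INHBA agents lay within 6.84 to 7.09, against 9.39 to 9.79 in T4 and 7.29 to 8.28 in S1, so every agent sample was also below every S1 sample.

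**Figure D2:**
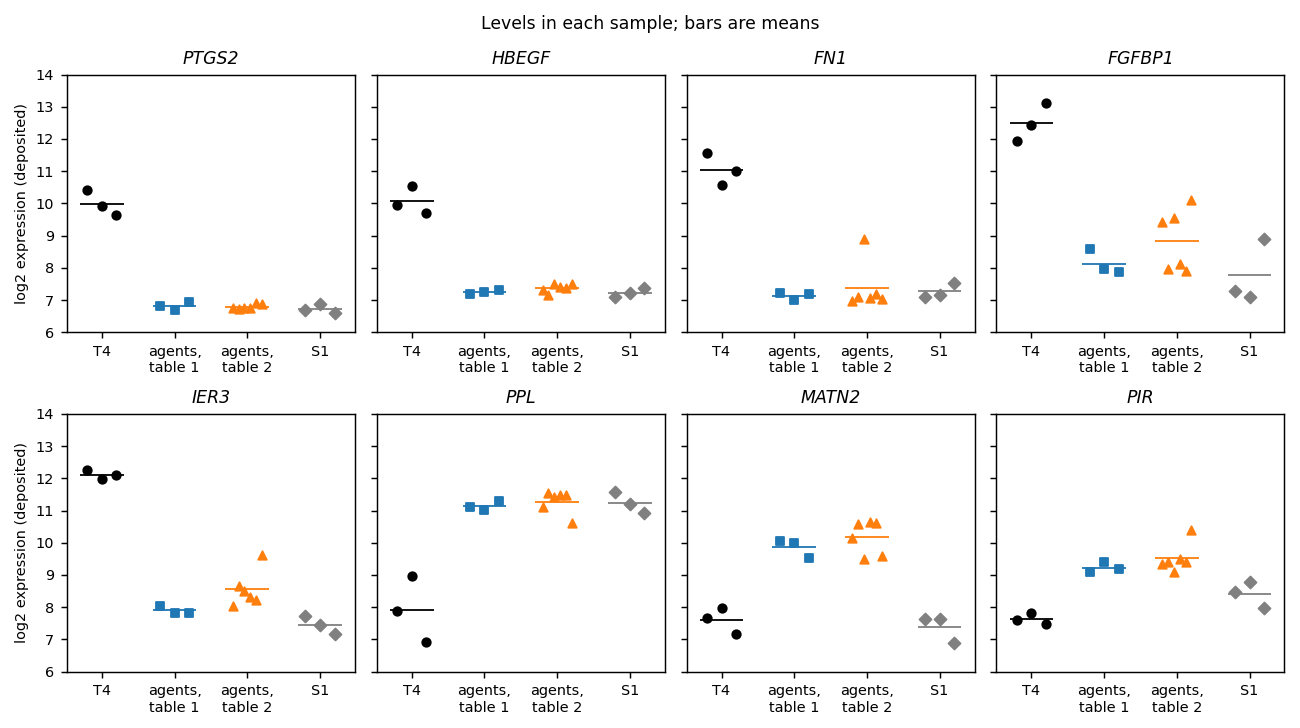
Deposited log2 expression (vertical axis) of 8 shared genes in each sample, with T4, the agents of the first and second table and S1 along the horizontal axis and bars at the group means. In each gene all 9 agent samples lie on one side of the 3 T4 samples, as the rule for shared genes requires. Among the agents, dominant-negative Rap1 (8.89) lies nearest to T4 for FN1, and AIIB2 (9.62) for IER3.

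Matrix and adhesion genes made up a second group of falls. FN1, which encodes fibronectin, stood at 11.56 in T4 sample 1, 10.56 in T4 sample 2 and between these in T4 sample 3, and at values between 6.97 (TNF protease inhibitor–2) and 8.89 (dominant-negative Rap1) with the agents, with a median of 7.10. The other 8 agents were at 7.21 or below, and dominant-negative Rap1 lay alone above them. The fitted difference was -3.93 ± 0.39 (adjusted p = 3.4e-05). LOXL2, which crosslinks collagen, went from 10.59, 10.16 and 8.86 to between 7.0 (mAb225) and 7.57 (dominant-negative Rap1), median 7.12 (-2.70 ± 0.30, adjusted p = 8.68e-05). The adhesion-modulating matrix gene THBS1 (-3.38 ± 0.41, adjusted p = 0.000179) completed the 3 shared members among 19 tested genes of the matrix and mesenchymal list, of which 4 fell and none rose (list median -0.26). Over all genes tested 8.44% fell and 0.658% were shared lower.

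Of 23 tested genes for basement membrane proteins and their receptors, 10 fell and none rose, with a median of -0.60, and 5 were shared. The list median by agent depended on the scale. As deposited it ran from -0.81 (the MMP and ADAM inhibitor) to 0.07 (mAb225), with -0.04 for dominant-negative Rap1 and -0.002 for PD98059. Less the fitted table term it ran from -0.82 (AIIB2) to -0.31 (mAb225). The shares over all genes tested were 8.44% lower, 6.46% higher and 0.658% shared lower. COL4A1, a chain of the main basement membrane collagen, went from 10.45, 9.61 and 9.55 to between 7.15 (the MMP and ADAM inhibitor) and 7.88 (dominant-negative Rap1), median 7.24 (-2.62 ± 0.23, adjusted p = 1.26e-05). Its partner COL4A2 fell by 1.86 ± 0.21. The integrin subunits ITGA5 of the fibronectin receptor (-2.22 ± 0.25, adjusted p = 8.68e-05), ITGA2 of a collagen receptor (-1.80 ± 0.21) and ITGB6 (-1.59 ± 0.20) were the other shared members. LAMB3, a laminin-332 chain, and ITGA6, a laminin receptor subunit, fell as well (-2.09 ± 0.29 and -1.90 ± 0.33). They missed the shared set through dominant-negative Rap1 on the deposited scale only. There it stood at 11.20 and 11.32 against T4 ranges of 11.50 to 11.72 and 12.02 to 12.39. Its differences from T4 were -1.23 and -1.10 less the fitted table term, and -1.25 and -1.91 with the S1 offset.

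PTGS2, the inducible cyclooxygenase that makes prostaglandins, was the gene with the largest change in its least-affected agent. Its T4 values were 10.42, 9.92 and 9.63, and the agents lay within 6.70 (the MMP and ADAM inhibitor) to 6.93 (LY294002), with a median of 6.77. S1 stood at 6.69, 6.89 and 6.61. The agent values were thus all at or below 6.93, the lowest of the samples' lower quartiles over genes, so the fitted difference of -3.14 ± 0.14 (adjusted p = 2.25e-08) may be understated. CCL20, a chemokine gene, also fell with all agents (-2.94 ± 0.31, adjusted p = 5.85e-05), with dominant-negative Rap1 highest at 8.58. Of 20 tested NF-kappaB and cytokine genes 5 fell and none rose (median -0.42), beside 8.44% of all genes called lower. The neutrophil attractant gene CXCL8 (-2.65 ± 0.46, adjusted p = 0.00218) missed the shared set through dominant-negative Rap1, at 9.71 against 10.08 to 10.82 in T4.

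The remaining named genes of the lower set have varied roles. NT5E encodes the ectonucleotidase that makes adenosine outside the cell and went from 10.55, 9.29 and 11.25 to between 6.97 (tyrphostin) and 7.89 (LY294002), median 7.16 (-2.88 ± 0.34, adjusted p = 0.000131). ZBED2, a transcription factor gene, went from 10.46, 9.48 and 11.35 to between 6.94 (LY294002) and 7.68 (GM6001), median 7.08 (-3.31 ± 0.36, adjusted p = 7.43e-05). In both genes T4 sample 3 was the highest T4 sample and T4 sample 2 the lowest. As the rule requires, no agent reached T4 sample 2. PLEK2, a pleckstrin family gene, went from 11.94, 11.84 and 12.29 to between 8.83 (PD98059) and 9.65 (AIIB2), median 9.07 (-3.00 ± 0.20, adjusted p = 9.49e-07). ARG2, the mitochondrial arginase, went from 10.46, 10.26 and 10.86 to between 7.28 (PD98059) and 8.38 (GM6001), median 7.65 (-2.37 ± 0.18, adjusted p = 3.42e-06).

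Metabolic and hypoxia-responsive genes added a few members. PFKP, a phosphofructokinase isoform, was shared (-2.65 ± 0.27, adjusted p = 3.72e-05), with LY294002 lowest at 8.56 and dominant-negative Rap1 highest at 9.89 against 11.12 to 11.42 in T4. Of 20 glycolysis genes tested, 8 fell and 1 rose (median -0.49), and the one that rose was PFKM, another phosphofructokinase isoform (0.82 ± 0.10, adjusted p = 0.000209). Of 17 hypoxia-response genes 6 fell and none rose (median -0.26), and ANGPTL4 (-2.61 ± 0.23), BHLHE40 (-3.03 ± 0.28) and LOXL2 were shared. Both lists stand beside 8.44% of all genes called lower. The other shared lower genes not yet named were ADAMTS1, AMIGO2, ANXA3, ASAP2, BMAL2, CDCP1, CEMIP2, ERCC1, GALNT14, GSDME, IGFBP6, IL4R, KDELR3, LIPG, NAV3, ODC1, OSBPL10, PNP, PRSS3, PXDN, SCG5, SERPINE2, SLC20A1, SMAGP, SMURF2, STK17A, TFPI2, TLR2, TNFRSF12A, TPBG and UPP1. Across all 60 the median fitted difference was -2.29.

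Of the shared higher genes, PPL had the largest change in its least-affected agent, and TMT1A the largest fitted rise. PPL encodes periplakin, which links keratin filaments to desmosomes and the cornified envelope. It stood at 7.88, 8.96 and 6.92 in T4 and between 10.62 (AIIB2) and 11.54 (PD98059) with the agents, median 11.29, a fitted rise of 3.32 ± 0.37 (adjusted p = 8.68e-05). S1 stood at 11.59, 11.21 and 10.91, within or near the agents' range. TMT1A, a thiol methyltransferase gene, went from 8.73, 9.94 and 7.02 to between 10.85 (dominant-negative Rap1) and 12.40 (mAb225), median 12.21 (3.44 ± 0.54, adjusted p = 0.00103).

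MATN2, the matrix protein matrilin-2, stood at 7.67, 7.97 and 7.16 in T4 and between 9.50 (dominant-negative Rap1) and 10.64 (tyrphostin) with the agents, median 10.05 (2.44 ± 0.33, adjusted p = 0.000398). Its S1 values of 7.63, 7.63 and 6.89 lay with T4 and not with the agents. C3, the central complement component, was another such gene (1.77 ± 0.25, adjusted p = 0.000531), with means of 10.45 in T4, 12.53 with the agents and 9.34 in S1. In 55 of the 60 lower genes, and in 18 of the 24 higher ones, all 3 S1 samples lay on the agents' side of T4. Both comparisons use the same T4 samples, and the genes were chosen for T4 levels apart from the agents. The share of all genes tested with S1 on that side is not given here, so these counts show no trait particular to the shared genes. The exceptions were COL4A2, OSBPL10, PXDN, SERPINE2 and TFPI2 among the lower genes and ASS1, C3, DKK3, MATN2, PHYH and TRIM29 among the higher ones.

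PIR, which encodes the nuclear iron-binding protein pirin, stood at 7.61, 7.82 and 7.49 in T4 and between 9.08 (dominant-negative Rap1) and 10.41 (AIIB2) with the agents, median 9.41 (1.75 ± 0.28, adjusted p = 0.00112). AIIB2 stood alone above the other agents, which ended at 9.49. MAOA, which oxidises monoamines, went from 11.45, 11.59 and 10.18 to between 12.44 (TNF protease inhibitor–2) and 13.02 (mAb225), median 12.65 (1.71 ± 0.30, adjusted p = 0.00213). PRODH, the first enzyme of proline breakdown, went from 7.91, 8.43 and 7.47 to between 9.49 (GM6001) and 10.68 (PD98059), median 10.13 (1.80 ± 0.23, adjusted p = 0.000285). As the rule for shared genes requires, the groups did not overlap in any of these 3 genes.

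The TGF-beta co-receptor gene TGFBR3 went from 10.02, 10.39 and 8.40 to between 10.92 (AIIB2) and 11.93 (PD98059), median 11.66 (2.09 ± 0.40, adjusted p = 0.00384). CRYAB, a small heat shock protein gene, went from 7.24, 7.60 and 7.04 to between 8.60 (dominant-negative Rap1) and 10.17 (tyrphostin), median 9.27 (2.18 ± 0.53, adjusted p = 0.0149). Its S1 samples were split between the tables, at 10.64 and 10.43 in the first and 8.24 in the second. RETREG1, a receptor for the autophagy of endoplasmic reticulum, went from 8.01, 8.41 and 7.10 to between 9.14 (TNF protease inhibitor–2) and 10.21 (the MMP and ADAM inhibitor), median 9.51 (2.20 ± 0.32, adjusted p = 0.000653). The secreted protein gene METRN rose by 1.64 ± 0.20 (adjusted p = 0.000144), the Wnt antagonist family gene DKK3 by 1.55 ± 0.31 (adjusted p = 0.00496) and the growth-arrest gene GAS1 by 1.73 ± 0.35 (adjusted p = 0.00502). The other shared higher genes were ASS1, BTG1, CREG1, DSG3, GLUL, GSR, GSTA4, PHYH, PLLP, SSBP2 and TRIM29, and the median fitted difference of all 24 was 1.78.

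The higher set rests more on a single T4 sample than the lower set. In T4 sample 3, TGFBR3 stood at 8.40 against 10.02 and 10.39, GAS1 at 7.3 against 8.89 and 8.84, and DKK3 at 9.61 against 11.12 and 11.14. Without that sample 9 of the 24 higher genes met the rule, and no gene joined. These were C3, GSR, MATN2, METRN, PIR, PLLP, PPL, PRODH and TMT1A. The other 15 kept their direction. In 14 of them, which kept their call, at least 1 agent then lay less than 2-fold from T4, and CRYAB left only through its adjusted p of 0.051. Of the 60 lower genes 49 met the rule without T4 sample 3, 11 left and 12 others joined. The 11 that left were BMAL2, EREG, NAV3, ADAMTS1, PRSS3, CDCP1, ODC1, GALNT14, SMURF2, CEMIP2 and STK17A, and ODC1 also missed the test (adjusted p = 0.0687).

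**Figure D3:**
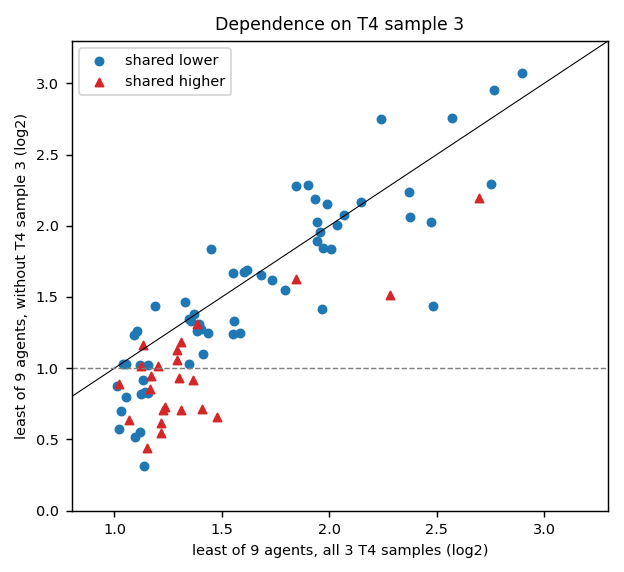
For each shared gene, the log2 difference from T4 of its least-changed agent, over the 3 scales, with all 3 T4 samples (horizontal axis) and without T4 sample 3 (vertical axis); the dashed line marks 2-fold and the solid line equal values. Of the 24 higher genes (triangles) 14 fall below the dashed line, and of the 60 lower genes (circles) 11.

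Within the shared sets, whose rule asks every agent for a 2-fold change, dominant-negative Rap1 had the smallest median change in the lower set. Over the 60 lower genes the median difference from T4, as deposited, lay between -2.34 (PD98059) and -2.01 (AIIB2) for 8 agents and was -1.78 for dominant-negative Rap1. After removal of the fitted table term it was -1.93 for dominant-negative Rap1 and -2.45 to -2.17 for the others, and with the S1 offset -2.14 against -2.62 to -2.17. Dominant-negative Rap1 was the least-changed agent in 25 of the 60 genes on the deposited scale, AIIB2 in 13, LY294002 in 10 and GM6001 in 4. With the S1 offset these counts were 17 for dominant-negative Rap1, 6 for AIIB2, 14 for LY294002 and 16 for GM6001. Over the 24 higher genes the medians ran from 1.60 (GM6001) to 1.91 (mAb225) as deposited. Over all genes tested the order was another. After removal of the fitted table term dominant-negative Rap1 lay at least 2-fold below the T4 mean in 381 genes and above it in 282, the most of any agent, and GM6001 in 212 and 116, the fewest. The top rank depended on the scale. As deposited, dominant-negative Rap1 had 336 and 229, fewer than PD98059 (368 and 267) and mAb225 (338 and 273). These agents have 1 sample each, so the differences between them carry no test.

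**Figure D4:**
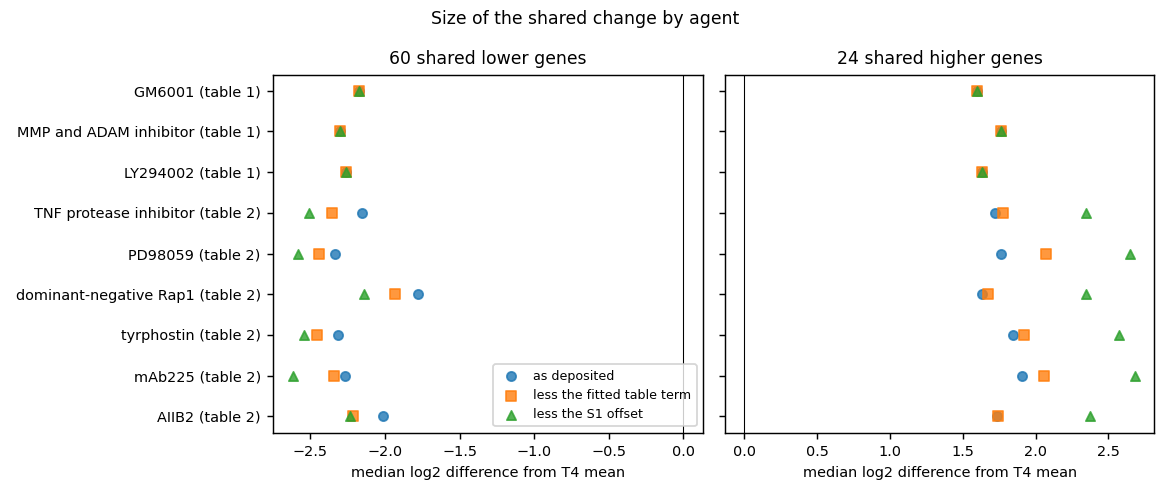
Median log2 difference from the T4 mean (horizontal axis) over the shared lower (left) and shared higher (right) genes for each agent (vertical axis), on the 3 scales shown by symbol. For the first table's agents the scales coincide; dominant-negative Rap1 is nearest to 0 in the lower set on every scale, at -1.78, -1.93 and -2.14.

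Dominant-negative Rap1 was also the agent that most often stood alone outside an otherwise shared change. A further 37 called lower genes met the rule with 8 agents, and the missing agent was dominant-negative Rap1 in 25, AIIB2 in 6, TNF protease inhibitor–2 and LY294002 in 2 each, and PD98059 and the MMP and ADAM inhibitor in 1 each. The 25 include CXCL8, ITGA6, LAMB3, ETV5 and VEGFA, of which VEGFA (-2.03 ± 0.30) was -0.58 from T4 with this agent as deposited. In the higher direction 12 genes had 8 agents, and dominant-negative Rap1 and AIIB2 were missing in 4 each and TNF protease inhibitor–2 and LY294002 in 2 each. GM6001, tyrphostin and mAb225 were never the single missing agent. These counts depend on the rule, since the 3 scales coincide for the first table's agents but differ for the second table's. With dominant-negative Rap1, CXCL8 (-0.70, -0.87 and -0.79) and VEGFA missed 2-fold as deposited, less the fitted table term and with the S1 offset. ETV5 (-0.87, -1.14 and -1.93) missed it as deposited only. Without the dominant-negative Rap1 sample the shared lower set held 85 genes and the higher set 29.

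**Figure D5:**
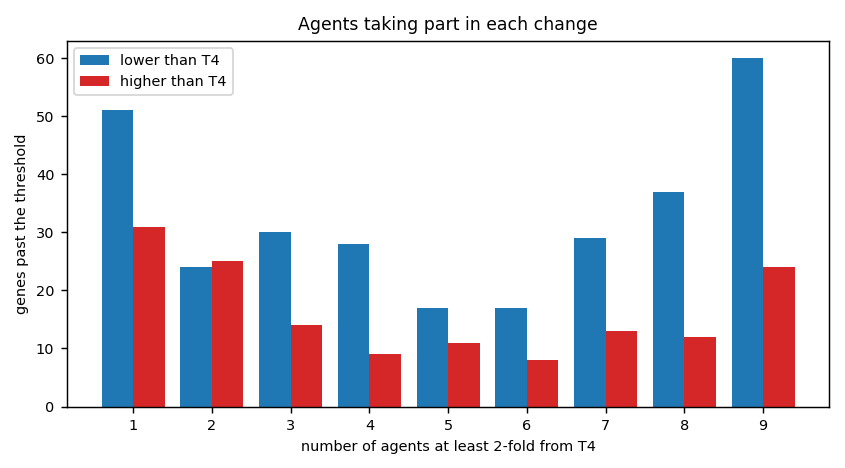
Number of called genes (vertical axis) by the number of agents that lay at least 2-fold from T4 and outside the T4 range on all 3 scales (horizontal axis, 1 to 9), lower genes in blue and higher genes in red. All 9 agents took part in 60 lower and 24 higher genes; 476 lower and 442 higher called genes, with no agent past these limits, are not drawn.

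Lists with no shared member showed where the agents parted. Of 26 cell division genes tested, 2 fell (MKI67 by 1.60 ± 0.45, adjusted p = 0.0284, and KIF2C by 1.06 ± 0.31, adjusted p = 0.0345) and none rose, a share near the 8.44% of all genes called lower. The list median was -2.13 with dominant-negative Rap1 as deposited, but between -0.76 (LY294002) and -0.23 (TNF protease inhibitor–2) with the other agents. None of 25 DNA replication genes tested was called in either direction, in the main fit or in the first table alone. The medians of this list depended on the scale. With TNF protease inhibitor–2 the median was 0.08 as deposited, -0.13 less the fitted table term and -1.23 with the S1 offset, and with dominant-negative Rap1 it was -0.95, -1.14 and -2.38. Cholesterol synthesis genes fell in 8 of 16 and none rose, with agent medians from -1.15 (dominant-negative Rap1) and -0.99 (LY294002) to -0.26 (the MMP and ADAM inhibitor). The first table alone called only 3 of them.

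Of 15 keratinocyte differentiation genes tested only PPL passed. The list median was 1.60 with AIIB2 and -0.30 to 0.00 with the other agents as deposited, and 1.11 with AIIB2 after the table term was removed. FOXO targets, genes held down by AKT signalling, rose in 4 of 14 and none fell, namely SESN1 (1.29 ± 0.20, adjusted p = 0.001), CDKN1B (1.15 ± 0.19), CITED2 (2.19 ± 0.38) and BCL6 (1.24 ± 0.32). BCL6 lay just outside the shared set, with a least difference of 0.97 for TNF protease inhibitor–2. Other genes near the limit were SAT1, PHLDA2, HACD2 and ITGB5 outside at 0.98, 0.97, 0.97 and 0.97, and STK17A, CEMIP2 and PHYH inside at 1.01, 1.02 and 1.02. Oxidative phosphorylation genes rose in 6 of 30 and none fell (median 0.32), and the first table alone called 11. As deposited, their median was below 0 with PD98059 (-0.10), dominant-negative Rap1 (-0.06) and mAb225 (-0.04), and up to 0.41 with the other agents. Less the fitted table term it ran from 0.17 (PD98059) to 0.60 (AIIB2). For the oxidative phosphorylation genes and the FOXO targets, the share of all genes called higher was 6.46%, and 6.92% in the first table.

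The counts of the other lists are to be read against the 8.44% of all genes called lower and the 6.46% called higher. Interferon-response genes rose in 3 and fell in 1 of 27, ATF4 and amino acid supply genes rose in 3 and fell in 6 of 26, and TGF-beta response genes rose in 3 and fell in 5 of 20. Among p53 targets 5 of 14 fell and 1 rose, among NRF2 targets and detoxification genes 4 of 18 rose and none fell, and among metalloproteinases and their inhibitors 3 of 14 fell and 1, ADAM15, rose. Basal markers fell in 4 and rose in 2 of 12, and luminal markers fell in 2 and rose in 1 of 11, with KRT18 down (-1.07 ± 0.19, adjusted p = 0.00255) and EPCAM up (0.93 ± 0.24, adjusted p = 0.0214). Junction and polarity genes rose in 2 of 25, a share near that of all genes, namely the desmosome genes DSG3 (1.28 ± 0.31, adjusted p = 0.0131) and PKP1 (1.10 ± 0.30, adjusted p = 0.0257). One of 14 heat shock genes, HSPA5, fell and one, CRYAB, rose. Of 8 tested leukocyte, endothelial and stromal markers ACTA2 alone passed (-0.55 ± 0.11, adjusted p = 0.00488).

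The called genes whose agents varied most were FGFBP1, EMP3, CXCL8, SCD and IGFBP5. EMP3, a membrane protein gene, stood at 10.59, 10.45 and 9.95 in T4 and ran from 7.51 (LY294002) to 10.31 (dominant-negative Rap1), so the ranges overlapped. SCD, which makes monounsaturated fatty acids, was at 11.76 to 11.91 in T4 and ran from 8.73 (LY294002) to 11.01 (TNF protease inhibitor–2). IGFBP5, an insulin-like growth factor binding protein gene, was at 6.73 to 7.14 in T4 and ran from 7.71 (LY294002) to 9.71 (mAb225), at a group adjusted p of 0.0458. LY294002 was the lowest agent in each of these 3 genes. Of the 5, FGFBP1 alone was shared.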

How the data were processed

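Expression was deposited by the authors as 2 tables of log2 values (8 and 7 samples) for the same 22215 probe sets. How they were summarised and normalized is not given in the sources used here. Their values run from 6.21 to 14.5 and sample medians from 7.33 to 7.40. The scale was read from the values. Platform annotation, updated through the Entrez number, gave 1 gene to 19707 probe sets, several to 614 and none to 1706; for 188 the array types disagreed. Each of 12149 genes was taken from its probe set with the highest mean, the dimmest 25% were left out, and 9112 were tested.

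limma 3.58.1 in R 4.3.3 (lmFit, eBayes, 2-sided, Benjamini-Hochberg) was fitted to all 15 samples, with a term for each of the groups S1, T4 and T4R and a fixed term for the table, and to the first table alone, and was tested on simulated data. T4 lies in the first table only, so for the second table's agents array type and treatment cannot be told apart without S1 or the first table's agents. Differences ± are standard errors from limma; single levels are deposited values. Named genes were the 12 shared genes per direction with the largest least-agent change that also passed in the first table and had no probe set passing the other way, the 5 most variable, 2 per list (24 lists) and the agents' targets. PIK3CA was not among the genes tested. Members and lists were chosen with earlier results of these data known. Arrays' number limits the precision.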

Additional observations from a re-analysis of the deposited data

Results flagged for a closer look

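Among the 9 agents, 12 of 71 named genes had 1 sample whose gap to its neighbour exceeded Dixon's critical ratio. In groups of replicates chance exceeds this ratio in about 1 of 20. The agents are not replicates of 1 condition, and 5 named genes were chosen for their spread over agents. The 12 can therefore not be set against that rate, and the ratio serves only to list samples apart. Levels here are log2 values less the fitted table term. Dominant-negative Rap1 was the sample apart in 8 genes. It was highest for FN1 (8.61, the next agent at 7.21), CXCL8 (9.54, next 8.15), EREG (7.95, next 7.04), ITGA5 (8.0, next 7.53), KRT18 (11.19, next 10.60) and RAP1A (11.31, next 10.71), and lowest for MKI67 (6.64, next 8.16) and KIF2C (7.24, next 8.03). AIIB2 was highest for IER3 (9.23, next 8.28), PIR (10.35, next 9.43) and DSG3 (11.77, next 11.03). LY294002 was lowest for GSTA4 (10.38, next 11.26).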

How the results depend on the processing

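The 24 named shared genes kept their direction under every alternative run, and their call in 693 of 694 values; CRYAB missed it without T4 sample 3. Calls in T4R against T4 numbered 1358 (769 lower, 589 higher), but 2795 (1449 and 1346) with the table offset from S1 alone and 3157 (1677 and 1480) with array weights. With T4 samples 1 and 2 averaged, and S1 samples 1 and 2, 376 were higher. Leaving out single samples gave 948 to 1595 calls, 554 to 888 lower and 373 to 707 higher, and 570 to 2166 in the first table alone. The shared sets then held 58 to 85 lower and 9 to 35 higher genes. At 1.5-fold they held 134 and 57, at 3-fold 27 and 3, and the higher set 40 with the fitted table term only and 44 with the S1 offset only. Among the 71 named genes, sign changes were seen only for 4 that did not pass. ITGB1 was -0.047 with no table block, -0.013 with a random block, -0.049 with only T4 and T4R samples and in the first table, -0.099 and -0.073 with quantile normalization within and across tables, -0.049 with the probe set of largest interquartile range and -0.084 with array weights. EGFR was -0.42 with the S1 offset, -0.072 with that probe set and -0.38 with array weights. RAP1A was -0.053 with no table block and -0.0039 with array weights. MMP14 was -0.17 with that probe set, -0.037 with the mean of probe sets and -0.076 with array weights. With a sample left out, ITGB1 lay between -0.049 and 0.072, EGFR between -0.43 and 0.29 and MMP14 between -0.053 and 0.14. The causes were not tested. No paired analysis was possible because the T4R samples carry no replicate number. Detection calls were not used, so what signal over background limits is unknown.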
